A study of Drosophila melanogaster with 24 samples.

Results

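The genes described here had higher mRNA levels late than early in fly embryos with active Ras, and stood at nearly the same late level in embryos with active Notch as in control embryos. The members were chosen by the measured levels of 12 of the arrays, among probe sets that passed a filter on all 24 arrays. A gene was a member if its mean log2 level in late Ras embryos exceeded that in early Ras embryos by 1 or more, and if its mean in late Notch embryos lay within 0.3 of that in late control embryos. Of 5020 genes with 1 symbol that passed the filter on low values, 64 met both conditions. They came from 269 such genes with a difference of 1 or more between the Ras windows, a size reached by 5.32% of all tested probe sets. Late Notch embryos were more than 0.3 below late controls for 178 of the 269, and more than 0.3 above them for 27.

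Whole Drosophila melanogaster embryos were measured on 24 Affymetrix DrosGenome1 arrays in 8 groups of 3. All embryos, controls included, had mothers homozygous for arm-GAL4, a yeast transcription factor driven by the armadillo promoter, which is active in most embryonic cells. The fathers carried UAS-NotchICD together with UAS-Ras85D(V12) (combined embryos), UAS-Ras85D(V12) alone (Ras embryos), UAS-NotchICD alone (Notch embryos), or no transgene (w1118, control embryos). Embryos of each cross were frozen late, 7 to 8 h after egg lay (mid-stage 11 to stage 12), and early, at 5 h 45 min to 6 h 45 min (stage 10 to mid-stage 11). About 500 embryos were pooled per collection, so no value belongs to 1 embryo or 1 tissue. The 3 samples of a group came from independent experiments, per the series' design text. Array medians lay between 4.04 and 4.22 on the log2 scale, and the root mean square difference between arrays of a group was 0.196 to 0.462 over genes. Among 16 tissue markers, 12 passed the filter, among them twi of the mesoderm, repo of glia and elav of neurons.

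Notch is a receptor whose intracellular part, released by cleavage, enters the nucleus and switches on target genes together with the DNA-binding protein Su(H). Ras85D relays signals of receptor tyrosine kinases to the MAP kinase cascade, and the V12 form is locked in its active state. In the hours covered here the germ band begins to retract, neuroblasts and tracheal cells separate from the ectoderm, and the remaining ectoderm starts to form epidermis. Epidermal cells then build septate junctions, which seal the space between cells, and lay down an apical extracellular matrix that prepares the cuticle.

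The values that chose the members are given as a description. The difference between late and early Ras embryos had a median of 1.25 over the 64 members and reached 3.86 for CG9628. The next largest were Phk-3 at 2.65, CG10598 at 2.39, neo at 2.36, CG9338 at 2.33, CG44325 at 2.22 and CRMP at 2.16, followed by CG13043 at 2.12, GILT1 at 2.07, haf at 2.07, CG15731 at 2.03 and egl at 1.98. Just inside the threshold lay Sarm, Trx2 and Sik3 at 1.01 each, and just outside it CG6356 at 0.99, Dys at 0.98 and PIG-L at 0.95. At the lower edge of the band for late Notch minus late control, GstD1 at -0.29, CG2962 at -0.28 and Phk-3 at -0.27 were inside, while Vdup1 at -0.30, Cpr64Ad at -0.31 and Surf4 at -0.31 were outside. At the upper edge pio at 0.30, Nrx-IV at 0.29 and Oscillin at 0.29 were inside, and MFS10 at 0.30, CG11069 at 0.31 and CG5853 at 0.35 were outside. Both edges cut through genes with nearly equal values.

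Lying within the band does not show that late Notch left a gene unaffected. Across all 5736 probe sets tested, 73% had a late Notch minus late control difference within 0.3. The standard error of a difference between 2 groups of 3 arrays ranged from 0.107 to 0.719 over the members, with a median of 0.232, and exceeded 0.3 for 16 of them. The members are therefore called below by their rule, as rising genes within the band.

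**Figure D1:**
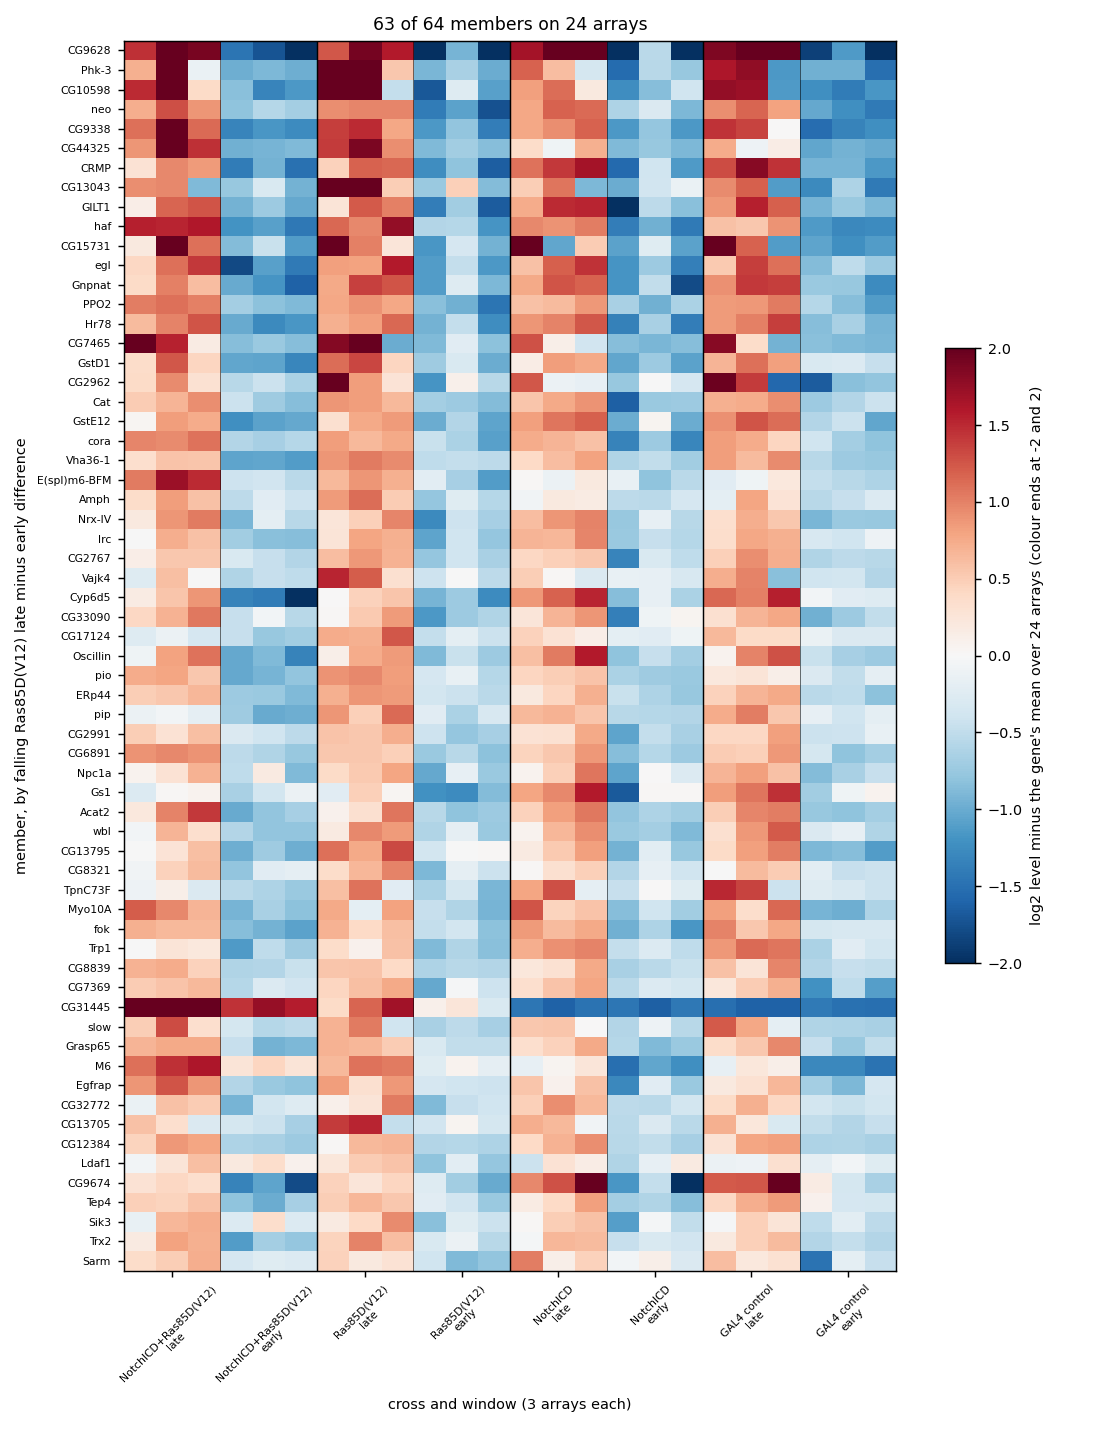
Level of 63 of the 64 members (rows, ordered by the difference between late and early Ras embryos) on each of the 24 arrays (columns, 3 per cross and window), as log2 level minus the mean of that gene over all arrays. Late columns are mostly red (higher) and early columns mostly blue (lower) in all 4 crosses, while CG31445 is red in combined embryos and blue on all Notch and control arrays.

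The change between windows was tested in combined embryos, whose 6 arrays entered the filter but neither of the 2 conditions of the rule. Most members were higher late than early in combined embryos: 55 of 64 rose and 0 fell (limma, adjusted p under 0.05), against 33.3% of all tested probe sets that were called (20.3% rose and 13% fell). However, 14 members reached the filter's level of 5 in fewer than 3 early arrays and needed their late arrays to pass. These were Phk-3, CG10598, CG9338, CG44325, CG13043, CG15731, CG7465, Amph, CG17124, Acat2, TpnC73F, CG8839, slow and Sarm. Without its Ras late arrays CG17124 would not have passed. For these 14 the filter itself favours a rise. Of the other 50 members, 43 rose. All 64 differences were above 0, and 56 had an unadjusted p under 0.05, as did 43.5% of all tested probe sets. CG9628 was 14.8-fold higher late than early, and haf 6.93-fold higher. The median difference over the 64 members was 1.39 on the log2 scale, against 0.03 over all tested probe sets, and single members ranged from 0.06 to 3.88. For 59 members all 3 late values lay above all 3 early values, as they did for 29% of all tested probe sets. Because whole embryos were measured, more cells of a type and more RNA per cell cannot be told apart.

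The mean level over the 64 members was 7.06 ± 0.21 in combined late and 5.62 ± 0.09 in combined early embryos (SD, n = 3 arrays each, as below). In Ras embryos it was 7.12 ± 0.09 late and 5.66 ± 0.21 early. Notch embryos had 6.94 ± 0.07 late and 5.63 ± 0.23 early, and control embryos 6.99 ± 0.13 late and 5.65 ± 0.04 early. The rule fixed the step in Ras embryos and the closeness of the late Notch and late control means. The step in combined embryos is the 1 of these 4 that rests on arrays outside those 2 conditions. Same-numbered samples were not independent across crosses, however. Late replicate 1 was the lowest in all 4 crosses for 15.6% of all tested probe sets. What such shared deviations add to the combined step was not tested.

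A measure of RNA ends moved with the window as well, and it differed among the late groups. On the arrays' GAPDH control probe sets, the 3' signal exceeded the 5' signal by 1.98 ± 0.58 log2 units in combined late and 0.90 ± 0.19 in combined early embryos, while the same difference for actin was 0.43 ± 0.16 late and 0.59 ± 0.10 early. In Ras embryos the GAPDH difference was 2.44 ± 0.46 late and 1.02 ± 0.53 early. Among the late groups it was lowest in Notch embryos, at 1.61 ± 0.15, and highest in control embryos, at 3.17 ± 0.68. The band of the rule thus compares the late groups that lay furthest apart in it. Actin was 0.62 ± 0.22 in Notch late and 0.64 ± 0.26 in control late embryos. The part of this measure in the choice of members and in their change was not tested.

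Among the members were 7 genes for junctions and the cell surface or its matrix, and all 7 rose in combined embryos, with a median difference of 1.61. Counts by role, here and below, stand against 85.9% of the 64 members and 20.3% of all tested probe sets that rose. They include members that needed late arrays to pass the filter, in this role slow. Roles were assigned after the members were known, so these counts do not set any role apart. Coracle (cora), the band 4.1 protein on the inner side of septate junctions, had 9.17, 9.13 and 9.27 in combined late and 7.60, 7.52 and 7.62 in combined early embryos. The late and early values were far apart compared with the spread within each window, and the difference was 1.61 ± 0.16 (SE, limma adjusted p = 3.7e-07). Neurexin IV (Nrx-IV), the transmembrane partner of Coracle in the same junction, had 8.57, 9.26 and 9.41 late and 7.45, 8.17 and 7.81 early, and it rose by 1.28 ± 0.24. Its 3 late values varied more than those of cora, yet none reached down to the early ones.

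The transmembrane protein M6, a proteolipid family member found at the corners where 3 epithelial cells meet, had 9.69, 10.05 and 10.21 in combined late and 8.85, 9.03 and 8.85 in combined early embryos, a rise of 1.07 ± 0.16. The apical matrix genes neo and pio both encode zona pellucida domain proteins, which form filaments at the outer face of epithelia. Neo had 8.80, 9.36 and 8.95 late and 7.27, 7.50 and 7.39 early, and pio had 7.50, 7.55 and 7.30 late and 5.74, 5.83 and 5.97 early. Both rose, by 1.65 ± 0.18 for neo and 1.61 ± 0.11 for pio, with no overlap between windows. Haf, a leucine-rich repeat protein, had 8.90, 8.86 and 8.95 late and 6.15, 6.26 and 5.92 early. Its rise of 2.79 ± 0.18 was the third largest among the members in this comparison. The tendon matrix protein gene slow had 4.86, 5.67 and 4.70 late and 4.02, 3.79 and 3.85 early. That rise of 1.19 ± 0.33 (limma adjusted p = 0.0081) missed the threshold without combined late replicate 2, at an adjusted p of 0.0621.

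**Figure D2:**
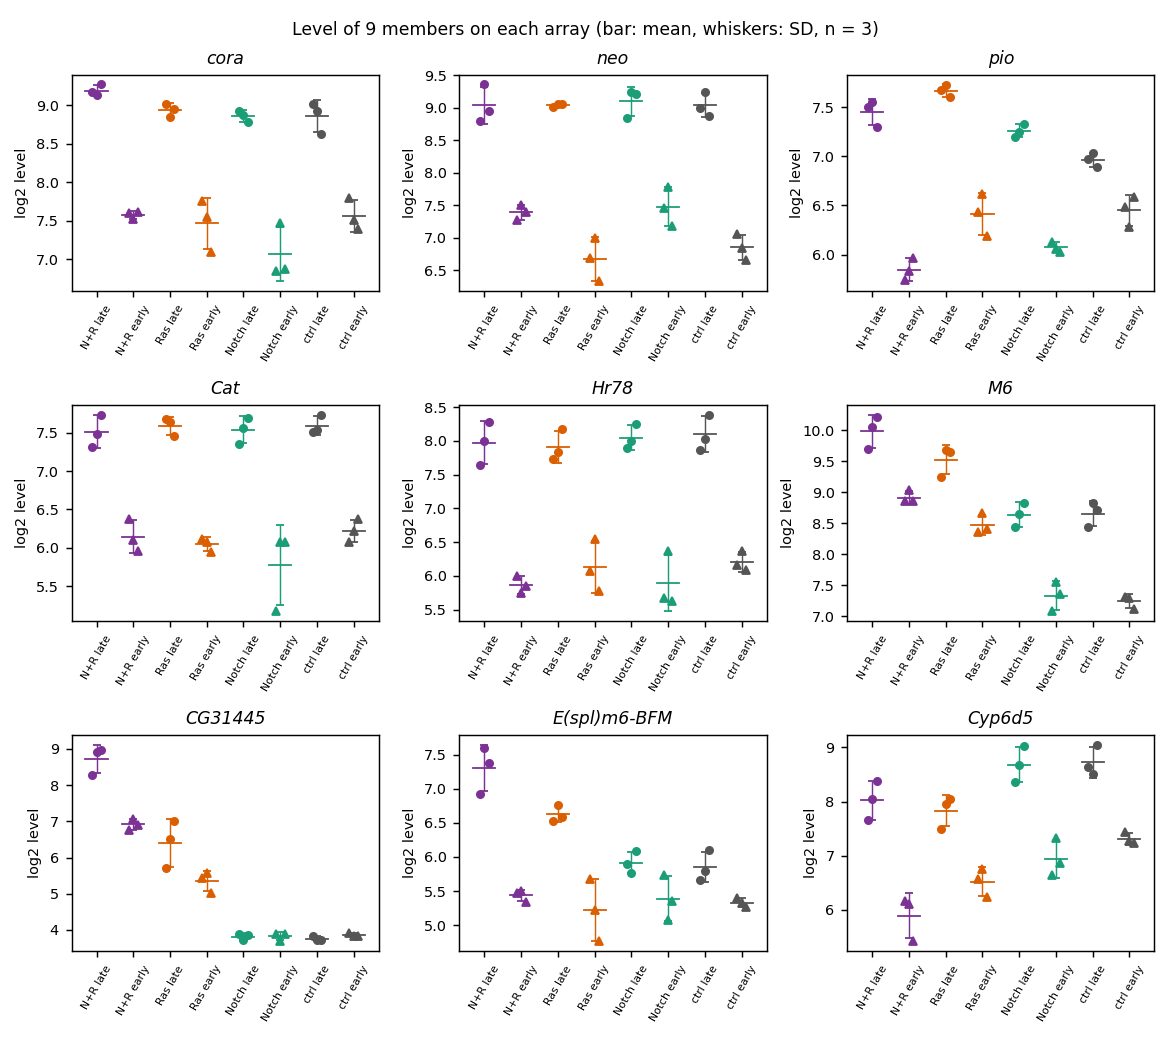
Log2 level (y axis) of 9 members on each array, by cross and window (x axis; N+R, combined embryos; ctrl, control embryos; circles, late; triangles, early). Bars give the mean and whiskers the SD of 3 arrays; cora, neo, Cat and Hr78 are at similar late levels in all crosses, whereas M6, CG31445 and E(spl)m6-BFM are higher late in combined and Ras embryos than in Notch and control embryos.

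Amino sugar metabolism feeds chitin and protein glycosylation. Gnpnat, the acetyltransferase on the way to UDP-N-acetylglucosamine, had 6.19, 6.82 and 6.42 in combined late and 4.80, 4.63 and 4.18 in combined early embryos, and it rose by 1.94 ± 0.29. Oscillin, a deaminase that returns glucosamine-6-phosphate to glycolysis, had 7.09, 7.98 and 8.25 late and 6.14, 6.29 and 5.84 early, a rise of 1.68 ± 0.30. An enzyme that fills the amino sugar pool and one that drains it were thus both higher late.

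Redox and detoxification enzymes numbered 6 and all rose, with a median of 1.53. Cyp6d5, a cytochrome P450, had 7.65, 8.04 and 8.38 in combined late and 6.16, 6.10 and 5.41 in combined early embryos, and rose by 2.13 ± 0.24. Catalase (Cat), which breaks down hydrogen peroxide, had 7.31, 7.49 and 7.74 late and 6.38, 6.10 and 5.96 early, and rose by 1.37 ± 0.18. The glutathione transferase GstD1 had 7.75, 8.63 and 7.81 late and 6.35, 6.34 and 6.08 early. For all 3 of these genes the lowest late value was above the highest early one. GstD1 was 3.49-fold higher late. The rise was 1.65 ± 0.25 for GstE12, a second glutathione transferase, 1.42 ± 0.19 for the thioredoxin Trx2 and 1.23 ± 0.19 for the immune-regulated catalase Irc.

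Of 8 genes for the secretory pathway and the endolysosomal system, 7 rose, with a median of 1.20 over the 8. ERp44, a chaperone of the endoplasmic reticulum, had 7.82, 7.86 and 7.98 in combined late and 6.59, 6.58 and 6.44 in combined early embryos. Its rise of 1.35 ± 0.12 came with the narrow spread seen also for Grasp65, a Golgi stacking protein that rose by 1.50 ± 0.15. Wbl, an endoplasmic reticulum protein, is needed for transport of the Golgi sulfotransferase Pipe (pip), and both genes were members. Wbl rose by 1.05 ± 0.25 and pip by 0.78 ± 0.15, and pip stayed at a low level of 5.12, 5.17 and 5.05 late and 4.52, 4.22 and 4.25 early. Trp1, the fly counterpart of the translocation factor Sec62, rose by 0.94 ± 0.16, and Vha36-1, a subunit of the proton pump that acidifies endosomes, by 1.55 ± 0.11. GILT1, a lysosomal thiol reductase, had 8.40, 9.43 and 9.52 late and 7.31, 7.54 and 7.24 early, and rose by 1.75 ± 0.36. Npc1a, which moves sterols out of lysosomes, did not pass. It had 5.75, 5.97 and 6.37 late and 5.17, 5.86 and 4.79 early, overlapping between windows, with a difference of 0.76 ± 0.29 (limma adjusted p = 0.052). Without combined early replicate 2 that adjusted p was 0.0134, without combined late replicate 1 it was 0.0438, and with the replicate block over all 24 arrays it was 0.0174.

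In nitrogen and lipid metabolism 2 of 4 members passed. Acat2, an acetyl-CoA acetyltransferase, rose by 1.70 ± 0.25, and CG9674, a glutamate synthase, by 1.74 ± 0.41. Glutamine synthetase 1 (Gs1) had 5.86, 6.16 and 6.20 in combined late and 5.49, 5.76 and 6.02 in combined early embryos, a difference of 0.32 ± 0.34 that did not pass. Ldaf1, named for lipid droplet assembly, had 6.34, 6.66 and 7.00 late and 6.59, 6.75 and 6.48 early, and its difference of 0.06 ± 0.22 was the smallest of all members. Late and early values of both genes were interleaved.

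Of the immune genes, PPO2, a prophenoloxidase of crystal cells, had 7.43, 7.51 and 7.41 in combined late and 5.72, 5.59 and 5.52 in combined early embryos, and rose by 1.84 ± 0.15. Tep4, a thioester protein, rose by 1.32 ± 0.16. In a list for hemocytes and the basement membranes they deposit, 10 of 19 measured genes rose, against 20.3% of all tested probe sets. These included PPO2 itself and the laminin genes LanA, LanB1 and LanB2. PPO1, the other prophenoloxidase gene of the list, did not pass (0.56 ± 0.23, limma adjusted p = 0.062). Nor did vkg (1.02 ± 0.42), Col4a1 (0.74 ± 0.36), Ndg (0.25 ± 0.13), Pxn (0.27 ± 0.16) or srp (-0.30 ± 0.21), among others of the list.

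Regulators and signalling proteins numbered 6, of which 5 rose. Hr78, a nuclear receptor, had 7.64, 8.00 and 8.28 in combined late and 6.00, 5.74 and 5.85 in combined early embryos, and rose by 2.11 ± 0.21. Egfrap, whose name marks it as an adaptor of the EGF receptor, rose by 1.72 ± 0.22. A second probe set of Egfrap that passed the filter differed by only 0.34 between combined windows and 0.17 between Ras windows. E(spl)m6-BFM, a Bearded family gene of the Enhancer of split complex, had 6.93, 7.60 and 7.38 late and 5.47, 5.50 and 5.34 early, and rose by 1.87 ± 0.20. Sarm, a TIR domain protein of axon degeneration, rose by 0.81 ± 0.25 (limma adjusted p = 0.016), but had an adjusted p of 0.0663 without combined late replicate 3. Sik3, a salt-inducible kinase, had 5.46, 6.28 and 6.35 late and 5.35, 5.96 and 5.34 early, which overlapped. It did not pass, with a difference of 0.48 ± 0.28 (limma adjusted p = 0.18), though the adjusted p was 0.0424 without combined late replicate 1 and 0.0354 with the replicate block over all 24 arrays.

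For the cytoskeleton and transport 4 of 5 members rose. Egalitarian (egl), which links mRNAs to dynein, had 6.30, 7.00 and 7.31 in combined late and 4.08, 4.81 and 4.48 in combined early embryos, and rose by 2.42 ± 0.30. CRMP, a collapsin response mediator protein, rose by 1.98 ± 0.27, the unconventional myosin Myo10A by 1.76 ± 0.25 and the membrane-bending protein gene Amph by 0.99 ± 0.20. TpnC73F, a troponin C of muscle, had 4.98, 5.19 and 4.78 late and 4.53, 4.45 and 4.33 early and did not pass (0.54 ± 0.40). It passed where only the 12 arrays outside the rule (limma adjusted p = 0.00822) or only the 6 arrays compared (0.0125) set the spread, and where the late replicate 3 arrays were left out (0.0172).

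No role was assigned to the other 24 members, of which 20 rose. Among the 20, Phk-3, CG10598, CG9338, CG44325, CG15731, CG7465, CG17124 and CG8839 needed late arrays to pass the filter. CG9628 had 8.84, 9.75 and 9.27 in combined late and 5.91, 5.65 and 4.65 in combined early embryos, a rise of 3.88 ± 0.54, which was the largest in the 64. CG9338 had 5.61, 7.19 and 5.64 late and 3.19, 3.34 and 3.25 early, and CG44325 had 5.11, 6.60 and 5.69 late and 3.26, 3.29 and 3.35 early. These last 2 genes were near the lower end of the scale early and above 5 late, with a rise of 2.88 ± 0.35 for CG9338 and a 5.66-fold rise for CG44325. GCRMA draws the values of dim probe sets together, which can understate such a change. The members without a role that did not pass were CG13705 (0.70 ± 0.37), CG13043 (1.00 ± 0.63), CG2962 (1.08 ± 0.64) and Vajk4 (0.63 ± 0.35). With only the 6 arrays compared, the adjusted p was 0.0375 for CG13705, 0.00254 for CG2962 and 0.0421 for Vajk4, and with only the 12 arrays outside the rule these 3 passed as well. With the late replicate 3 arrays left out, CG13043 (0.00279), CG13705 (0.000300) and Vajk4 (0.0228) passed.

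Leaving out 1 array ended the call of some members without a role. Without combined late replicate 2, the adjusted p was 0.0586 for CG10598, 0.186 for CG15731, 0.106 for CG17124, 0.0596 for CG8321 and 0.184 for Phk-3. Without combined late replicate 1 it was 0.0920 for CG7465 and 0.0524 for Phk-3, and without combined late replicate 3 it was 0.0823 for CG15731 and 0.0814 for CG8321. Omission of combined early replicate 1 gave 0.0559 for CG32772, 0.0988 for CG8321, 0.0921 for CG15731 and 0.0747 for Phk-3. Omission of combined early replicate 2 gave 0.0961 for CG17124, 0.0600 for CG15731 and 0.0660 for Phk-3. Omission of combined early replicate 3 gave 0.0780 for CG17124, 0.112 for CG15731 and 0.0741 for Phk-3. With all arrays the rises were 2.44 ± 0.69 for CG10598, 2.29 ± 0.70 for CG7465, 1.96 ± 0.72 for CG15731 and 1.84 ± 0.64 for Phk-3, and 0.84 or less for CG32772, CG8321 and CG17124.

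**Figure D3:**
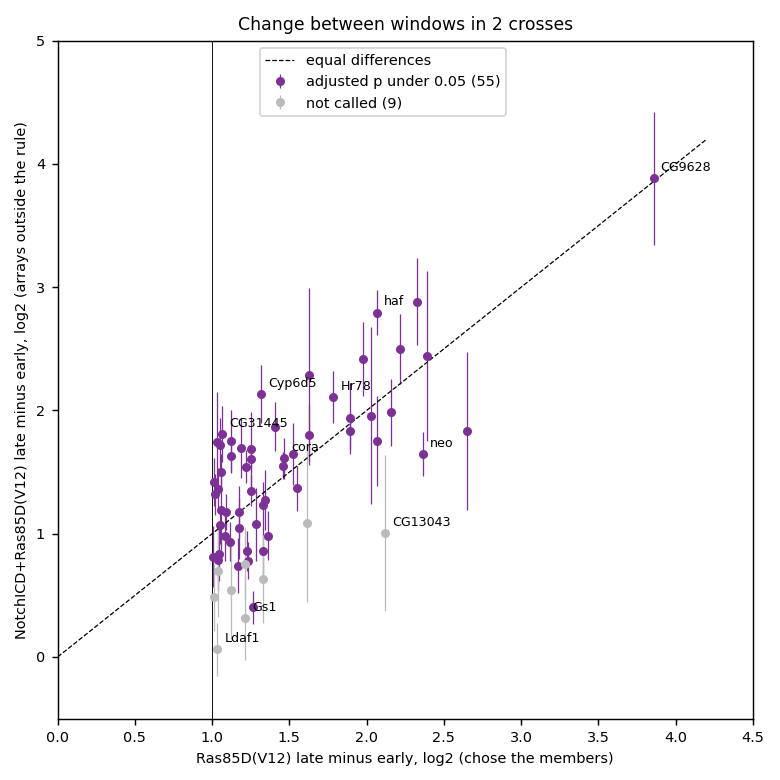
Late minus early difference on the log2 scale in combined embryos (y axis, whiskers SE) against the same difference in Ras embryos (x axis), for the 64 members. The x values chose the members, so all points lie right of 1; purple points passed the test in combined embryos (55) and grey points did not (9), among them Ldaf1 at 0.06 on the y axis and CG13043 at 1.00.

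Late samples of 1 replicate number stood apart for part of the members, which was noticed after the values were seen and is given without a test. The late replicate 3 array was the lowest of the 3 late arrays in all 4 crosses for 8 members, against 2.46% of all tested probe sets. These were CG10598, CG13043, CG13705, CG2962, CG7465, Phk-3, TpnC73F and slow. Phk-3, for example, had 5.27, 6.62 and 4.42 in combined late, 6.97, 6.97 and 5.09 in Ras late, 5.73, 5.18 and 4.21 in Notch late and 6.18, 6.33 and 3.41 in control late embryos, in the order of replicates 1 to 3. In late controls its replicate 3 value was as low as the early values of 3.59, 3.60 and 3.04. Late replicate 1 was the lowest in all 4 crosses for 22 other members, against 15.6% of all tested probe sets, among them GILT1, Oscillin, Hr78, M6 and Nrx-IV. Oscillin in those arrays was 1.03 below the mean of the other combined late arrays and 1.06 below that of the other control late arrays. The labels give the same replicate numbers in every cross and the design text describes collections in parallel sets. An alternative with the 4 late replicate 3 arrays left out was added after the data were seen. In it 56 members rose in combined embryos, against 18.1% of all tested probe sets. With the same arrays left out, 53 genes met the rule, of which 41 were among the 64. What sets these samples apart was not tested.

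In Notch and control embryos the change between windows shares arrays with the rule and is described without a test. A difference of 1 or more was found for 45 members in Notch embryos and 48 in control embryos, against 4.57% and 5.88% of all tested probe sets. In combined embryos 46 members differed by 1 or more, against 4.93%. Cora had 8.93, 8.87 and 8.78 in Notch late and 6.85, 7.47 and 6.88 in Notch early embryos, and 9.02, 8.93 and 8.62 in control late and 7.79, 7.51 and 7.39 in control early embryos. CG9628, with the largest rise in combined embryos, differed by 3.87 in Notch and 3.92 in control embryos. Both genes were thus high late in every cross. CG31445 and Ldaf1 departed from this: CG31445 differed by -0.01 in Notch and -0.11 in control embryos, and Ldaf1 by 0.20 in each.

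Rising genes on either side of the band give the setting for these values. The members' median late minus early difference was 1.39 in combined and 1.29 in control embryos. The 178 genes below the band had a median of 0.90 in combined and 1.60 in control embryos, and the 27 genes above it had 1.92 in combined and 1.34 in control embryos. Late Notch and late control arrays chose all 3 sets, so differences between these sets follow in part from the choice.

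**Figure D4:**
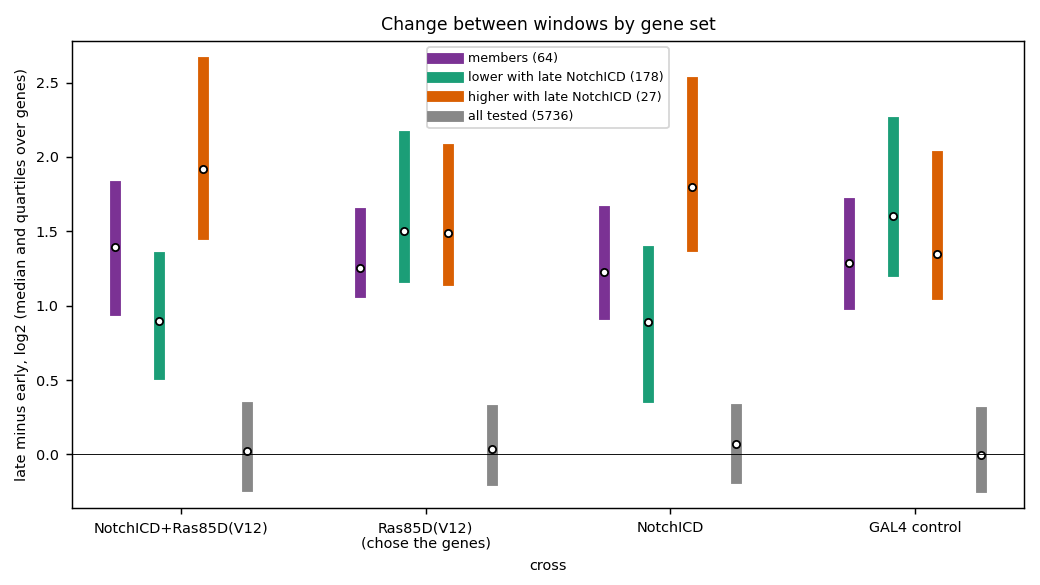
Median (points) and quartiles (bars) of the late minus early difference on the log2 scale (y axis) in each cross (x axis) for the 64 members, the 178 rising genes lower with late NotchICD, the 27 rising genes higher with late NotchICD and all 5736 tested probe sets. The members' medians run from 1.23 to 1.39 across crosses, while all tested probe sets stay near 0.

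Whether the transgenes changed the members in the early window was tested on early combined, Notch and control arrays. None of these entered the 2 conditions of the rule, though the filter used them along with all other arrays. The 3 comparisons share these 9 arrays and are not independent of each other. Few members were called for active Notch. In Notch early against control early embryos 1 rose and 2 fell (limma, adjusted p under 0.05). That is 4.69% of the members, against 5.42% of all tested probe sets (1.94% higher and 3.49% lower). The share of members was therefore near that of all genes. For 14 members fewer than 3 of the 12 early arrays reached 5, and such low values leave little room for a fall to be seen. The median difference was -0.01 over the members and -0.04 over all. With the replicate number as a block, since the numbers pair the samples, 5 members were called over all 24 arrays (6.78% of all probe sets) and 7 within the early window (8.09%).

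Neo had 7.46, 7.78 and 7.18 in Notch early and 7.05, 6.84 and 6.66 in control early embryos, and rose by 0.63 ± 0.18 (limma adjusted p = 0.042). Fok, to which no role was assigned, had 5.83, 6.17 and 5.63 in Notch early and 6.44, 6.47 and 6.48 in control early embryos, and fell by 0.59 ± 0.14 (0.010). Pio fell by 0.38 ± 0.11 (0.041), with 6.13, 6.06 and 6.03 in Notch early and 6.48, 6.28 and 6.59 in control early embryos. The 2 zona pellucida genes moved in opposite directions, and the groups did not overlap for any of these 3 genes. None of the 3 calls held in every alternative. Fok lost its call without Notch early replicate 3 (adjusted p = 0.0833) and with only the 6 arrays compared (0.0781). Neo lost it without control early replicate 2 (0.119) or 3 (0.208) and without Notch early replicate 1 (0.0972) or 2 (0.252). Neo also missed the threshold with each array centred on its median (0.0526) and without the filter (0.0938). With only the 12 arrays outside the rule neo had 0.0606, and with only the 6 compared 0.118. Pio lost it with the replicate block within the early window (0.111), without control early replicate 1 (0.138) or 3 (0.229), and without any of the Notch early replicates (0.0653, 0.113 and 0.123 for replicates 1 to 3). Centring each array on its median gave 0.0869 for pio, and quantile normalisation 0.192. With only the 12 arrays outside the rule pio had 0.0686, and with only the 6 compared 0.127. Omission of Notch early replicate 2 brought cora (-0.70, adjusted p = 0.00773) and CG9674 (-1.64, 0.0158) past the threshold, and omission of control early replicate 2 did so for CG7369 (0.77, 0.0376).

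E(spl)m6-BFM is the single member in a list of known Notch target genes. It had 5.73, 5.08 and 5.35 in Notch early and 5.40, 5.33 and 5.26 in control early embryos, a difference of 0.05 ± 0.20. Of the 16 measured genes of that list, 11 rose in the same comparison and the others did not pass, with a median difference of 0.96. The level of E(spl)m6-BFM thus stayed within the spread between replicates on arrays where most of the listed target genes rose.

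Combined early embryos differed from control early embryos for 8 members, of which 2 rose and 6 fell. That is 12.5% of the members, against 6.96% of all tested probe sets (2.53% higher and 4.43% lower). CG31445 had 6.77, 7.07 and 6.90 in combined early and 3.91, 3.84 and 3.83 in control early embryos, and rose by 3.06 ± 0.22 (limma adjusted p = 4.8e-09). M6 had 8.85, 9.03 and 8.85 in combined early and 7.31, 7.30 and 7.11 in control early embryos, and rose by 1.67 ± 0.16 (1.6e-07). Neither gene's groups came near to overlapping. With the replicate block 13 members were called over all 24 arrays (4 higher and 9 lower, against 10.2% of all probe sets) and 17 within the early window (4 higher and 13 lower, against 11.7%).

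Cyp6d5 fell the most, with 6.16, 6.10 and 5.41 in combined early and 7.44, 7.27 and 7.23 in control early embryos (-1.42 ± 0.24, limma adjusted p = 3.0e-04). Pip fell by 0.65 ± 0.15 and fok by 0.62 ± 0.14, while pio, at 5.74, 5.83 and 5.97 in combined early and 6.48, 6.28 and 6.59 in control early embryos, fell by 0.61 ± 0.11. Fok and pio thus fell in combined as well as in Notch embryos against the same control arrays. Tep4 fell by 0.62 ± 0.16 (limma adjusted p = 0.023) and Vha36-1 by 0.39 ± 0.11 (0.026), and neither of these 2 calls held in every alternative. The adjusted p of Tep4 was 0.172 without control early replicate 1, 0.0581 without combined early replicate 1 and 0.115 without combined early replicate 2. That of Vha36-1 was 0.152 and 0.0542 without control early replicates 1 and 2, and 0.0658, 0.0571 and 0.0915 without combined early replicates 1 to 3. With each array centred on its median it was 0.0766. Omission of control early replicate 2 brought CG7369 to 0.75 (0.0389), and omission of combined early replicate 1 brought CG17124 to -0.50 (0.0485).

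Against Notch early embryos, combined early embryos differ by the Ras transgene. Here 2 members rose and 0 fell, against 0.227% of all tested probe sets called in either direction (0.0872% higher). At an unadjusted p under 0.05, 10 members differed, against 9.99% of all tested probe sets. The 2 were again CG31445, with 6.77, 7.07 and 6.90 in combined early and 3.89, 3.70 and 3.90 in Notch early embryos (3.09 ± 0.22, limma adjusted p = 6.4e-08), and M6, with 8.85, 9.03 and 8.85 in combined early and 7.08, 7.55 and 7.36 in Notch early embryos (1.58 ± 0.16, 7.9e-06). Both passed in every alternative tried. With the replicate block Cyp6d5 also passed, lower by 1.06 in combined than in Notch early embryos (adjusted p = 0.0486 over all 24 arrays, 0.0317 within the early window), and within the early window Vha36-1 did as well (-0.47, 0.0317).

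**Figure D5:**
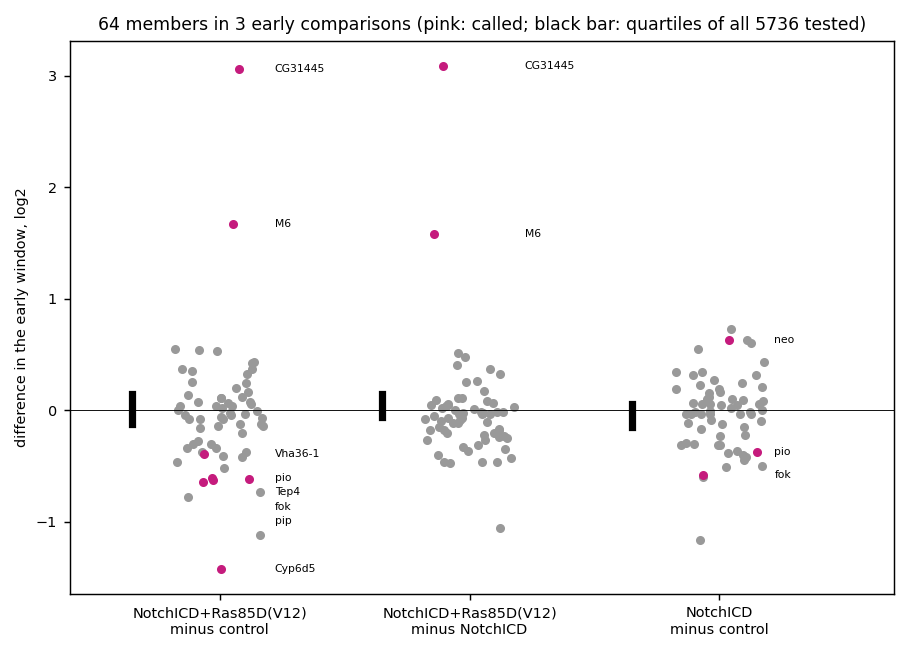
Difference in the early window on the log2 scale (y axis) for each of the 64 members in 3 comparisons (x axis: combined minus control, combined minus Notch, Notch minus control); points are spread sideways at random. Pink points passed limma's test at an adjusted p under 0.05 and are named; the black bar is the range between the quartiles of all 5736 tested probe sets, and CG31445 and M6 stand above the others in both comparisons of combined embryos.

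At the late window the crosses with active Ras are compared with control arrays that chose the members, so the values are a description. Late Ras embryos were 0.5 or more above late controls for 13 members (2.42% of all tested probe sets) and 0.5 or more below them for 6 (2.06%). Late combined embryos were 0.5 or more above for 9 members (5.65%) and 0.5 or more below for 10 (7.79%). CG31445 stood apart by level. It had 8.28, 8.92 and 8.98 in combined late, 5.71, 6.50 and 7.01 in Ras late, 3.89, 3.71 and 3.85 in Notch late and 3.83, 3.71 and 3.71 in control late embryos. Notch and control arrays were thus at the low end of the scale in both windows, Ras arrays higher and combined arrays higher still. In early Ras embryos it had 5.43, 5.57 and 5.03. The late differences from control were 4.98 for combined and 2.66 for Ras embryos. Its place within the band is therefore a comparison of 2 levels near the floor.

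E(spl)m6-BFM had the same order late, with 6.93, 7.60 and 7.38 in combined, 6.53, 6.76 and 6.59 in Ras, 5.90, 5.77 and 6.08 in Notch and 5.66, 5.80 and 6.10 in control embryos. Combined values all lay above Ras values, and Ras values above Notch and control values, which overlapped. M6 was at 9.69, 10.05 and 10.21 in combined late, 9.25, 9.68 and 9.64 in Ras late, 8.43, 8.65 and 8.83 in Notch late and 8.43, 8.82 and 8.71 in control late embryos. In M6 the difference between crosses was already present early, with 8.85, 9.03 and 8.85 in combined, 8.35, 8.66 and 8.41 in Ras, 7.08, 7.55 and 7.36 in Notch and 7.31, 7.30 and 7.11 in control embryos. Haf, too, was higher late than in controls, by 0.88 in combined and 0.61 in Ras embryos.

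Genes of nitrogen metabolism were on the other side. Gs1 had 5.86, 6.16 and 6.20 in combined late, 5.90, 6.61 and 6.18 in Ras late, 6.92, 7.09 and 7.72 in Notch late and 6.97, 7.20 and 7.60 in control late embryos. All 6 late values of the crosses with active Ras lay below the 6 of the other crosses. CG9674 had 5.87, 6.00 and 5.91 in combined late, 6.04, 5.82 and 6.01 in Ras late, 6.54, 6.85 and 7.76 in Notch late and 6.80, 6.83 and 7.83 in control late embryos, with the same separation. Glutamine synthetase and glutamate synthase together form a cycle that assimilates ammonia, and both mRNAs were more than 1 log2 unit below control in each of the 2 crosses. Pip and CG17124 differed between the crosses with active Ras: pip was 0.89 below control in combined embryos and 0.06 above it in Ras embryos, and CG17124 was 0.71 below and 0.43 above.

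The members' functions were set beside lists of related genes. In combined embryos, 15 of 20 measured genes of a septate junction list rose between windows and 2 fell (20.3% and 13% of all tested probe sets), with a median of 0.69 against 0.03 over all tested probe sets. Beside cora and Nrx-IV, the risen genes included the claudins kune (0.82 ± 0.15) and sinu (0.86 ± 0.19), the adhesion protein gene Nrg (0.97 ± 0.18) and pasi1 (1.16 ± 0.16). Pasi1 lay just outside both conditions of the rule, at 0.96 between Ras windows and 0.30 for late Notch minus late control. The polarity genes scrib (-0.54 ± 0.15) and l(2)gl (-0.50 ± 0.17), whose proteins lie along the same side of the cell, fell. The list also holds Sec61gamma, a translocon subunit and not a junction protein, which rose by 1.02 ± 0.15.

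The following counts stand against 20.3% of all tested probe sets that rose and 13% that fell. Of 11 measured apical epidermal genes 6 rose between windows in combined embryos, neo among them, and the others did not pass. A list for chitin, cuticle and trachea had 8 of 19 that rose, with pio, and 2 that fell. A list for lipid metabolism and detoxification had 8 of 17 that rose, with GstD1 and Cat, and 2 that fell, both of them cytochrome P450 genes: Cyp4g1 (-1.04 ± 0.24) and Cyp6a8 (-0.70 ± 0.16). The P450 among the members, Cyp6d5, thus moved in the other direction. Of 14 muscle genes 2 rose, a share near that of all probe sets, and the others, TpnC73F among them, did not pass. Of 16 Notch targets 8 rose and 1 fell. No member belonged to the lists for glycolysis, ecdysone, glia, neurons, serpins and proteases, gut and fat body, or feedback genes of Ras signalling.

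Across the 24 arrays each member's level was compared with the mean of the other members, as a description; the arrays share windows and crosses, so these correlations are not over independent samples. The closest were Hr78 (Pearson r = 0.969), CG9628 (0.964), CG9338 (0.962) and CG6891 (0.960). The median over members was 0.892, and 31 exceeded 0.9. The 2 members under 0.6 were CG31445 (0.195) and Ldaf1 (0.535). In the RefSeq gene order, cora and wbl are direct neighbours with 0 genes between them, and Hr78 and M6 are separated by 3 genes.

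Of the 64 members, 12 had other probe sets on the array, 20 in all, of which 7 passed the filter. The second probe set of CG6891 had a difference of 1.16 between Ras windows, and that of M6 had 0.95. The other 5 had between 0.16 and 0.60, so probe sets of 1 gene did not always give the same size of change. The filter also bears on the count: 50 members reached a log2 level of 5 in 3 or more of the 12 early arrays, and 43 of these rose in combined embryos, while 14 members reached it through late arrays.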

How the data were processed

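Total RNA of whole embryos was labelled with biotin and hybridised to Affymetrix DrosGenome1 arrays, 3 per cross and window. The deposited log2 values, 1 per probe set and array, were made by the authors with GCRMA, per the submitters' processing notes, which also name limma without a version. GCRMA corrects background by probe sequence, normalises arrays against each other and summarises probes, so a shift shared by most genes is removed. With 3 arrays per group, their number limits the precision, as do the spread of each gene and, for dim probe sets, the floor of the scale.

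Of 14010 probe sets, 44 controls were left out. A probe set was kept if it reached 5 in 3 or more of 24 arrays, and where several shared a symbol the 1 with the highest mean stood for the gene. This left 5736 probe sets, 5020 of them with 1 symbol in the platform annotation; all 64 members matched the RefSeq table (Release 6 plus ISO1 MT assembly). The means of the 8 groups were estimated over all 24 arrays (R 4.3.3, limma 3.58.1, lmFit and eBayes, 16 residual and 4.09 prior degrees of freedom). P-values were adjusted by Benjamini and Hochberg's method over all 5736, with a threshold of 0.05. The test was tested on simulated data, with 50 of 5736 genes changed at each of 0.5, 1, 1.5 and 2 log2 units. In the late against early comparison of combined embryos, 46% were recovered at 0.5 and 88% at 1, and 10 of 176 calls were false. The simulated noise was independent between arrays, and far fewer genes changed than the 33.3% called in the data. These rates therefore need not hold for the data.

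The rule used 12 arrays (Ras late, Ras early, Notch late, control late); tests were made on the other 12. Members and gene lists were chosen with earlier results of these data known. The genes named were the members with the largest and smallest differences, those called in the early comparisons, those in the lists, those next to a threshold and those most like the mean; other members were named by role after their values were seen, and roles were assigned after the members were known. Same-numbered samples of different groups deviated together from their group means. In the early comparisons each sample correlated best with its own number (0.156 to 0.541). In combined late against combined early not every sample did (0.109 to 0.254). The design text describes parallel collections, so replicate numbers were taken to pair samples in the alternatives with a block. The main fit did not use the pairing. Alternatives were other scalings, filters, prior settings, arrays and the replicate block. The values of 1 member are not reported here.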

Additional observations from a re-analysis of the deposited data

How the results depend on the processing

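The rise of members between windows in combined embryos kept its direction throughout, and between 49 and 59 of the 64 members rose under the alternatives run (49 to 54 without 1 array, 57 with the replicate number as a block, 59 with only the 6 arrays compared). Of all tested probe sets, 20.3% rose with all arrays and 15.9% to 19.4% without 1 array. The share was 23.6% with the block and 20.8% with only the 6 arrays compared. Of the 55 risen members 45 passed in every alternative and 10 did not. Quantile normalisation left 55 members higher, although over all probe sets it gave 994 higher and 985 lower in place of 1167 and 743. The early counts moved more. Notch early against control early, 3 members with all arrays, gave 1 with each array centred on its median, 5 with the replicate block over all 24 arrays, 7 with the replicate block within the early window, 1 with only the 6 arrays compared, and 1 to 3 without 1 array. The share of all probe sets called moved too, from 5.42% with all arrays to 5.07%, 6.78%, 8.09% and 4.67% in that order. It was 4.46% to 5.06% without 1 array. Combined early against control early, 8 members, gave 13 with the block over 24 arrays, 17 with the block within the window, 14 with only the 6 arrays compared, and 6 to 8 without 1 array. Here the share of all probe sets went from 6.96% with all arrays to 10.2%, 11.7% and 10.7% in that order. Without 1 array it was 4.79% to 5.63%. Combined early against Notch early, 2 members, gave 4 under quantile normalisation and 4 with the block within the window, while the block over 24 arrays gave 3. Of all probe sets 0.227% were called with all arrays, and 0.366%, 0.453% and 0.471% under these alternatives in that order. Fewer arrays and a different estimate of spread enter these fits; the cause was not tested further. The rule itself decides how many genes belong: 126 met it with a rise of 0.75 or more, 20 with 1.5 or more and 110 with a band of 0.5. Without 1 array of the rule 59 to 79 genes met it, of which 50 to 63 were among the 64, and after quantile normalisation 50 did, of which 48 were. No named member reversed its direction in any alternative where it was called. Dim signal limits some values: 14 members reached a log2 level of 5 in fewer than 3 of the 12 early arrays, so the size of their late minus early differences is bounded by the floor of the scale.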
